A study of Mus musculus with 4 samples.

Results

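The cytosolic ribosomal protein genes are the genes whose products, together with ribosomal RNA, build the ribosomes of the cytoplasm. Members were chosen by symbol alone: every feature named Rpl or Rps followed by a digit, plus Rplp0, Rplp1, Rplp2 and Rpsa, without the Rps6k kinases and without pseudogene symbols. The rule gave 86 of 32285 features, 34 of the small (40S) subunit and 52 of the large (60S) subunit. They were counted in liver leukocytes of mice of the genotype IL-22sgBFP, in which a blue fluorescent protein (BFP) reports expression of the cytokine gene Il22. CD45+ cells, the leukocytes, were freed from minced liver with collagenase and DNase I, enriched on a Percoll gradient and sorted into an IL-22-BFP-negative and an IL-22-BFP-positive fraction, before (0 h) and 12 h after MC38 cancer cells in PBS were injected into the spleen. Each of the 4 groups is 1 library, how many mice stand behind it is not given in the sources used here, and all groups carry the reporter allele. No group received an injection without cancer cells, so injection and cancer cells cannot be told apart.

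A ribosome reads messenger RNA with its small subunit and joins amino acids with its large subunit, and each canonical ribosomal protein is present once per subunit apart from the stalk proteins Rplp1 and Rplp2. Because every ribosome needs the whole set, the messages of these genes are among the most abundant in a cell. Most of them start with a C followed by a run of C and T bases, the 5′ terminal oligopyrimidine (TOP) tract, through which the mTOR pathway regulates their translation. Lymphocytes that leave the resting state raise ribosome production before they divide.

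A TOP tract lies at the transcription start, so the sequence around the annotated start is shown here for some members on which later results turn. RefSeq promoter sequences (GRCm38.p6) were matched by symbol for 66 of the 86 members. Rps20, Rps29 and Rpl3, which lead or trail later comparisons, were not among them. A run of at least 8 bases that are each C or T, on the transcribed strand and overlapping the 10 bases on either side of the start, was present in 27 of 66 members (40.9%) and in 13.5% of all 27025 promoters. At a length of at least 10 bases the counts were 20 of 66 (30.3%) and 6.83%, and the median longest run was 6 bases in members and 4 bases in all promoters. Such a run can also lie wholly before or after the annotated start, so these counts are not counts of TOP tracts. The 30 bases centred on the start are given 5′ to 3′ on the gene's strand, with the longest C or T run in capitals. The first 4 have long runs, and each leads a comparison or is the most abundant member.
Rpl35: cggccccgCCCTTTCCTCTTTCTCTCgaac
Rpl38: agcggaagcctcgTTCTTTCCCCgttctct
Rps24: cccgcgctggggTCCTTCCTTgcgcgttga
Rps27: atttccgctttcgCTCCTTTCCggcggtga
Rps27l: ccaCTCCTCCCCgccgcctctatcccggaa
Rps28: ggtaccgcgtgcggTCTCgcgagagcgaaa
Rpl10: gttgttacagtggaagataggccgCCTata
The last 3 are Rps27l, a paralog of Rps27 with a low level, and the 2 members shown with short runs, Rps28 and Rpl10. In Rps27l the marked run ends before the annotated start, so it is not a TOP tract of a transcript that begins there. The windows lie at chr2:39005117-39005146 (minus strand) for Rpl35, chr11:114668565-114668594 (plus) for Rpl38 and chr14:24490663-24490692 (plus) for Rps24. Those of the others lie at chr3:90213634-90213663 (minus) for Rps27, chr9:66946071-66946100 (plus) for Rps27l, chr17:33824548-33824577 (minus) for Rps28 and chrX:74270801-74270830 (plus) for Rpl10. Rps28 has a run of 4 bases and Rpl38 one of 10. Whether run length goes with the later differences between libraries was not tested. In the wider promoter, from 250 bases before to 50 bases after the start and on either strand, CCGGAAG, the core letters bound by Ets-type factors, occurred in 37.9% of members and 9.12% of all promoters. GGGCGG, a GC box, occurred in 60.6% and 35.9%, AAGATGGC in 7.58% and 2.88%, and the TATA box letters TATAAA in 9.09% and 14.2%. CCGGAAG and AAGATGGC can overlap by the letters AAG, and a match describes the sequence only.

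The libraries held 8555 and 10231 barcodes (IL-22-BFP-negative, 0 h and 12 h) and 300 and 1378 barcodes (IL-22-BFP-positive), of which 7928, 9492, 283 and 1345 were kept. Total unique molecular identifiers (UMIs), each marking a captured transcript, were 18891674, 29859062, 1148221 and 5048583 in the same order, and median UMIs per kept cell were 1794, 2153, 3352 and 3719. Libraries shared at most 116 barcodes (the IL-22-BFP-negative pair), and the IL-22-BFP-positive pair shared 0. Ptprc, the gene of CD45, was at 457 to 703 CPM in the 4 libraries and Alb, made by hepatocytes, at no more than 4.57 CPM. Il22 had 16 UMIs at 0 h and 1 at 12 h in the negative fraction, and 6 at 0 h and 0 at 12 h in the positive one, so its transcripts do not show the sort at 12 h, and the fractions are named by their labels. Cells were clustered without the member genes, and clusters were named "-like" from marker lists. With 1 library per group there is no replicate check, so a ratio compares 2 libraries and not 2 conditions, and all intervals are exact 95% intervals that cover counting error only. The kit tags the 3′ end of a transcript, so levels, given as UMIs per 1000000 UMIs of the sum (CPM), were not divided by gene length, and because levels are shares of a total, more of one message and less of the others cannot be told apart.

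Ribosomal protein messages made up 27.3% of all UMIs at 0 h and 27.8% at 12 h in the IL-22-BFP-negative fraction, against 21.9% and 20.7% in the positive one. Single cells ranged from 0.458% to 58.8%, and no kept cell lacked them. Of the 86 members, 80 were at 100 CPM or more in every library, and the 10 most abundant held 24.5% of all member UMIs. The members lie on 19 chromosomes, with 14 on chromosome 7.

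Rps24, a 40S protein, had the highest mean level, at 9794 CPM (negative, 0 h), 9499 CPM (negative, 12 h), 6470.0 CPM (positive, 0 h) and 5405 CPM (positive, 12 h; gene at chr14:24487125-24496959, plus strand). Rpl13, of the 60S subunit, followed at 8279, 8141, 5167 and 5136 CPM in the same order. Rpsa, the 40S protein also known as the laminin receptor, was at 7519, 7691, 4422 and 4059 CPM. These 3 were lower in both positive libraries than in either negative one, as was the total, beside a different make-up: monocyte-like cells were 127 of 283 and 990 of 1345 positive cells, and 139 of 7928 and 530 of 9492 negative ones. Rps16, Rpl23, Rps15a, Rplp0 and Rps9 were also among the 10 most abundant, and Rps9 was at a similar level in all libraries (4698, 4742, 4758 and 5228 CPM).

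The low end of the set is held by paralogs and by genes that share the name. Rpl36al, a paralog of Rpl36a, was the most abundant of these 9, at 1042, 1158, 1036 and 1344 CPM, and Rpl22l1, the paralog of Rpl22, was at 732, 716, 562 and 535 CPM. Rps27l, a paralog of Rps27 known as a p53 target, was at 146, 195, 232 and 359 CPM. Rps19bp1, which binds Rps19, stood between 42.0 and 59.4 CPM, Rpl7l1 between 38.4 and 46.0, and Rps27rt between 16.5 and 44.4. Rpl3l, the striated-muscle paralog of Rpl3, reached 5.79 CPM at most, the testis paralog Rpl39l reached 1.12 CPM, and Rpl10l, also known from testis, had 0 UMIs in every library. For 8 members more than 50% of the 60-base stretches in the last 400 bases of the transcript also occur in another feature, so counting may have split or dropped their reads: Rpl9, Rpl10, Rps27, Rps27rt, Rpl35, Rpl36a, Rps18 and Rpl41. Their median level was 1199 CPM against 3084 CPM for the members that share no more than that, and differences between members in level are read with this limit.

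The share of ribosomal protein UMIs separated the cell classes by a wide margin. In the IL-22-BFP-negative library of 0 h it was 35.1% in T-cell-like cells (2436 cells), 30.2% in B-cell-like cells (2047 cells) and 21.9% in NK-or-ILC1-like cells (822 cells), where ILC1 are innate lymphocytes close to NK cells. Among antigen-presenting and phagocytic classes it was 24.9% in conventional dendritic (cDC-like), 22.4% in plasmacytoid dendritic (pDC-like) and 19.8% in monocyte-like cells. Plasma-cell-like cells, which secrete antibody and had a median of 11426 UMIs per cell, were at 16.5% although they descend from B cells.

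At 12 h the order among these classes was nearly kept: 35.5% in T-cell-like, 32.3% in B-cell-like, 24.97% in cDC-like, 24.2% in both NK-or-ILC1-like and pDC-like, 18.1% in monocyte-like and 16.5% in plasma-cell-like cells. Basophil-or-mast-cell-like cells stood at 20.2% and 20.4% at 0 h and 12 h, the cluster led by interferon-response genes at 34.5% and 34.3%, and cycling cells at 25.1% and 27.2%. Neutrophil-like cells were the lowest named class, at 8.70% in the IL-22-BFP-negative library of 12 h (50 cells) and 3.28% in the positive one (22 cells). In the clusters of low UMI count, left unnamed, the share was 8.74% and 10.3% in the negative libraries, beside 5.41% and 4.61% mitochondrial UMIs, 4.81% and 4.24% Malat1 (a nuclear RNA) and medians of 677 and 709 UMIs per cell. T-cell-like cells of 0 h had 1.91% mitochondrial UMIs and 0.960% Malat1, and the part of RNA quality in the low share of these clusters was not tested.

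**Figure D1:**
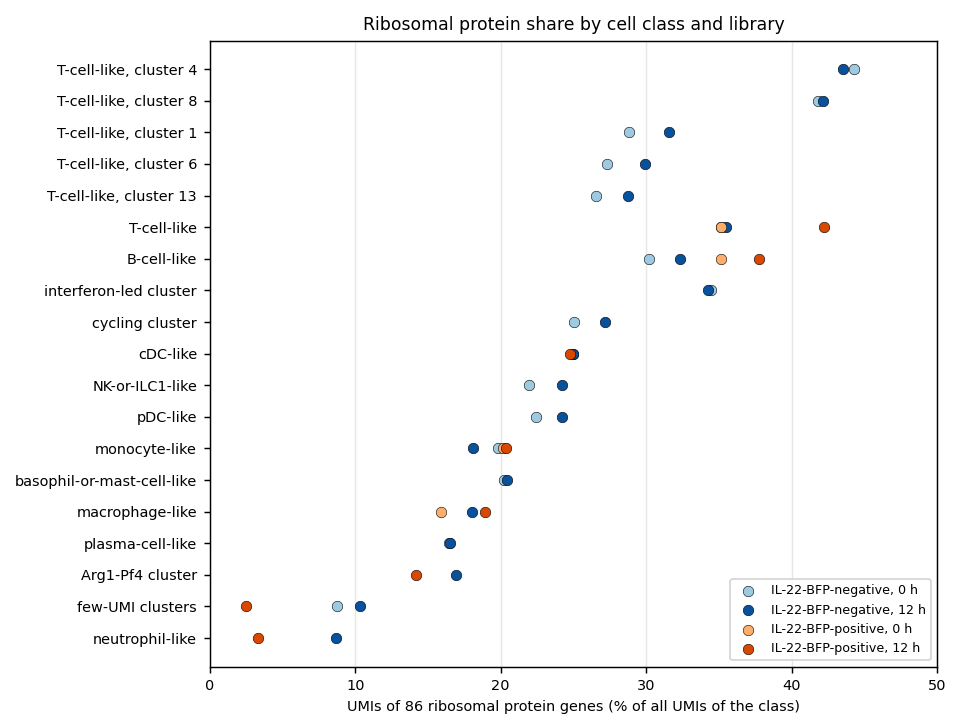
Share of ribosomal protein UMIs (x axis, % of all UMIs of the class) by cell class and, in the top 5 lines, by T-cell-like cluster; each point is 1 library, and 95% counting intervals are narrower than most points. T-cell-like clusters 4 and 8 lie above 41%, while monocyte-like and plasma-cell-like cells lie between 16% and 21% in every library shown.

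Within lymphoid classes the share also moved with the depth of a cell. In T-cell-like cells of 0 h the median over cells was 10.8% in cells of 500 to 1000 UMIs and 44.5% in cells of 4000 to 6000 UMIs, and at 12 h the same bins gave 21.7% and 38.6%. NK-or-ILC1-like cells ran from 12.2% to 27.3% at 0 h and from 17.4% to 28.6% at 12 h. Monocyte-like cells of 12 h changed less, from 15.9% at 2000 to 3000 UMIs to 18.8% at 6000 to 10000 UMIs in the negative library. In the positive library of 12 h they rose from 15.5% at 500 to 1000 UMIs to 21.7% at 6000 to 10000 UMIs. Monocyte-like cells of 0 h did not show it, with 19.3% at 3000 to 4000 UMIs and 18.9% at 4000 to 6000 UMIs in the negative library, and 21.0% at 2000 to 3000 UMIs and 19.1% at 6000 to 10000 UMIs in the positive one. Across clusters depth and share did not keep 1 order: cluster 8 of the T-cell-like cells had 41.8% at a median of 2265 UMIs per cell at 0 h, and cluster 1 had 28.8% at 2355 UMIs.

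**Figure D2:**
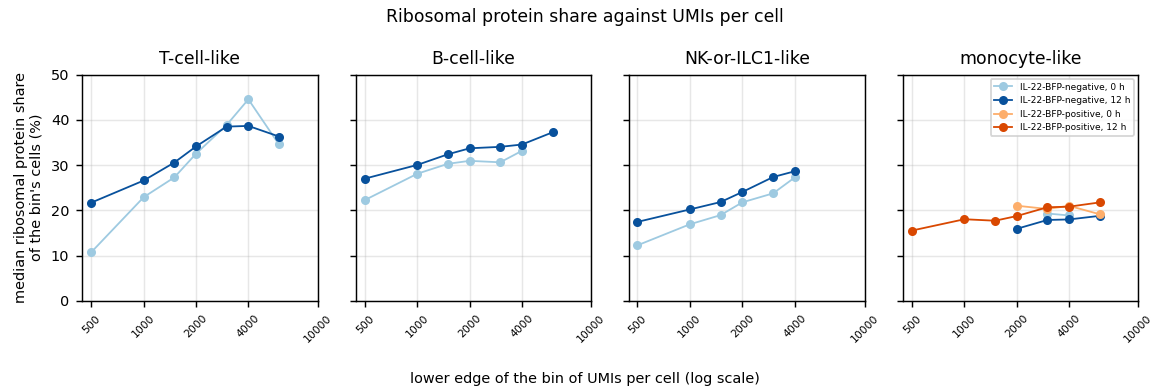
Median share of ribosomal protein UMIs per cell (y axis, %) against the UMIs per cell (x axis, log scale, lower edge of each bin) in 4 classes, with 1 line per library. Lines climb with depth in T-cell-like, B-cell-like and NK-or-ILC1-like cells; in T-cell-like cells of 0 h the deepest bin falls back to 34.5%.

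Both subunits contributed in nearly constant proportion. The 40S members held between 46.2% and 51.2% of ribosomal protein UMIs in every class and library with at least 20 cells. In the IL-22-BFP-negative libraries the values at 0 h and 12 h were 48.3% and 48.3% in T-cell-like, 49.3% and 49.5% in B-cell-like, 47.3% and 47.8% in monocyte-like and 46.5% and 46.6% in plasma-cell-like cells. The range across classes was thus far narrower than the range of the total share, from 2.49% to 42.2%.

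T-cell-like clusters differed widely from one another. Cluster 4, led by Cd8b1 with Lef1, Tcf7 and Il7r, genes of recirculating and little-activated T cells, had a share of 44.3% at 0 h (649 cells) and 43.5% at 12 h (782 cells). Cluster 8, led by Ly6c1, Igfbp4, Lef1 and Tcf7, had 41.8% and 42.2%. Cluster 1 was led by Trbv13-2, Cd40lg and Cxcr6, with Cxcr3, Ifng and the T cell receptor genes Trbv13-1, Trbv29, Trgv2 and Tcrg-C1 next. Cxcr6, Cxcr3 and Ifng are genes of tissue-resident and type 1 T cells, but with these receptor genes the cluster is not named further. Cluster 1 had 28.8% (791 cells) and 31.6% (1415 cells). Cluster 6 was led by Tnfrsf4, Izumo1r and Areg, with Ctla4, Icos, Trbv19, Ikzf2 and Rora next. Some of these are genes of regulatory T cells, but the cluster is not named further. It had 27.3% and 29.9%, and cluster 13, with Gzmk, Ccl5 and Nkg7, had 26.6% and 28.7%. The lower quartile of cells in cluster 4 (39.9%) lay above the upper quartile in cluster 1 (31.6%) at 0 h, beside medians of 3181 and 2355 UMIs per cell.

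Nearly every member took part in that gap, which was looked at after the shares were seen. The clusters were chosen by these shares, so the counts show how the gap was spread over members and are no separate support for it. A larger member share also lowers the CPM of all other genes, so the backgrounds are not independent of it. The other scalings were not applied to comparisons between clusters or classes. A member is counted here as higher or lower when its CPM differed at least 1.3-fold and both sums together held at least 100 UMIs, and the percentage of all measured genes past the same mark is given as background. In cluster 4 over cluster 1 at 0 h, 70 of 83 members were higher (background 6.52%) and 1 was lower (background 54.5%), with a median log2 ratio of 0.56 in members and -0.43 in all genes. At 12 h, 48 were higher (6.62%) and 2 lower (45.4%), with medians of 0.42 and -0.34. The same held for cluster 8 over cluster 6 at 0 h, with 66 of 80 members higher (8.44%) and 1 lower (48.7%), and for cluster 4 over cluster 13 at 0 h, with 74 of 82 higher (12.6%) and 1 lower (47.9%).

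Rps20, a 40S protein, had the highest ratio between clusters 4 and 1 at 0 h, at 10661 against 4918 CPM (2.17-fold), and again at 12 h (1.999-fold). Rplp0, the stalk base of the 60S subunit, was at 10685 against 5356 CPM (1.99-fold) and at 12 h 1.83-fold higher. Rpl35, Rps26 and Rps19 were 2.01-, 1.96- and 1.91-fold higher at 0 h. Each of the 5 was also at least 1.75-fold higher at 12 h, so the leading members did not depend on 1 library. The members with the lowest ratios were of another kind: Rpl7l1 at 0.589, Rps19bp1 at 0.819 and Rps27l at 0.850, all related in name or sequence but not canonical ribosomal proteins. Rpl27 (1.04) and Rpl36al (1.07) came next. In cluster 8 over cluster 6, Rps20 again led (2.07-fold) and Rps27l was again the lowest (0.539).

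The counts of the related lists are read against the same backgrounds of 6.52% higher and 54.5% lower, and snoRNA host genes stood farthest above the first. Of 18 measured translation factors with TOP messages, 2 were higher in cluster 4 than in cluster 1 at 0 h and 1 was lower: the elongation factor subunit Eef1b2 went from 1445 to 2552 CPM (1.77-fold), Npm1, a nucleolar chaperone, from 1061 to 1552 CPM (1.46-fold), and Eif4a2, an initiation factor helicase, from 86.3 to 64.0 CPM (0.742). Of 7 snoRNA host genes, which carry the small RNAs that guide modification of ribosomal RNA, 4 were higher and 0 lower, led by Zfas1 (43.2 to 92.1 CPM) and Snhg3 (25.2 to 41.5 CPM). Of 22 ribosome biogenesis genes, 2 were higher (Wdr12, 1.46-fold, and the transcription factor Myc, 1.31-fold) and 1 was lower (Nolc1, 0.730). Mitochondrial ribosomal proteins had 0 of 66 higher and 19 lower (median log2 ratio -0.24, and -0.43 in all genes), the lowest being Mrps25 at 43.2 and 17.97 CPM (0.416). Rack1, a protein of the 40S subunit outside the naming rule, was higher (2270.1 to 3617 CPM, 1.59-fold), while Fau, which encodes a ribosomal protein fused to a ubiquitin-like sequence, was at 1.18.

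NK-or-ILC1-like cells, monocyte-like cells and the clusters of low UMI count were each compared with T-cell-like cells, also after the shares were seen, and most members were lower in all 3 comparisons. These counts are likewise no separate support for the lower shares. A lower member share raises the CPM of all other genes, so the backgrounds are not independent of it. The same holds for plasma-cell-like over B-cell-like cells below. In NK-or-ILC1-like over T-cell-like cells at 0 h, 72 of the members were lower (background 9.99%) and 1 higher (31.4%), with median log2 ratios of -0.63 in members and 0.21 in all genes. Rps19 was the lowest, at 2194 against 5234 CPM (0.419), followed by Rplp0 (0.459) and Rps20 (0.467), which are among the 5 members that led cluster 4 over cluster 1. The 1 member higher was Rps27l, at 154 against 108 CPM (1.42-fold). In the clusters of low UMI count over T-cell-like cells, 83 were lower (22.5%) and 0 higher (63.4%), with a median log2 ratio of -1.99, and the members ranged from 0.213 (Rpl22) to 0.631 (Rpl7l1).

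In monocyte-like over T-cell-like cells at 0 h, 71 members were lower (background 39.3%) and 2 higher (27.8%). Rpl12, a 60S protein near the stalk, was at 716 against 2825 CPM (0.253) and at 12 h at 616 against 2762 CPM (0.223). Rplp1, a stalk protein, was at 2822 against 8475 CPM (0.333) and Rpl13a, part of an interferon-regulated translation control complex in myeloid cells, at 1857 against 5313 CPM (0.350). These 3 stand below the ratio of the total share, and their order was similar at 12 h (0.223, 0.360 and 0.311). The 2 members higher in monocyte-like cells were Rps27l, at 219 against 108 CPM (2.03-fold, and 2.72-fold at 12 h), and Rpl10, which joins the 60S subunit late, at 906 against 616 CPM (1.47- and 1.48-fold).

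Plasma-cell-like over B-cell-like cells showed the most uneven set. At 0 h, 75 members were lower (background 71.7%) and 4 were higher (13.2%), with median log2 ratios of -0.82 in members and -1.005 in all genes. Members were lower more often than the background, and by less at the median. At 12 h the counts were 75 lower (67.2%) and 4 higher (16.1%), and the 4 were the same members at both times. Rps27l was at 525 against 80.7 CPM at 0 h (6.50-fold, 5.64 to 7.51) and 535 against 103 CPM at 12 h (5.21-fold, 4.61 to 5.91). Rpl36al was at 2002 against 911 CPM (2.20-fold, and 1.99-fold at 12 h). Rpl41, the shortest member with 75 coding bases, was 1.53- and 1.56-fold higher, and Rpl10 was 1.43- and 1.35-fold higher. Rps27 itself, the gene of which Rps27l is a paralog, was the lowest, at 1489 against 5331 CPM (0.279) and 1592 against 6230.1 CPM (0.255). Rplp0 was close to even (1.07 at 0 h).

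The pathway around the ribosome was lower too in plasma-cell-like cells at 0 h. All 22 measured biogenesis genes were lower, from Myc (67.5 to 12.4 CPM, 0.183) to Gnl3 (0.751), as were 7 of 7 snoRNA host genes, led by Zfas1 (95.8 to 17.5 CPM), and 15 of 18 TOP translation factors. The background of 71.7% lower applies to these counts as well. Mitochondrial ribosomal proteins were divided, with 15 of 69 higher and 31 lower, and Mrpl57 was 4.16-fold higher (64.4 to 267.7 CPM).

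Rpl31, a 60S protein at the exit of the peptide tunnel, was the member with the clearest single class. Its level in pDC-like cells was 2379.9 CPM at 0 h and 2524 CPM at 12 h. In the other main classes it was 712 and 702 CPM (T-cell-like), 718 and 762 CPM (B-cell-like), 563 and 555.1 CPM (NK-or-ILC1-like), 488 and 474 CPM (monocyte-like), 925 and 763 CPM (cDC-like) and 496 and 456 CPM (plasma-cell-like). The values of pDC-like cells lay above all others at both times, while the pDC-like share of all members (22.4% and 24.2%) was ordinary. Rpl31 was singled out after its values were seen.

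**Figure D3:**
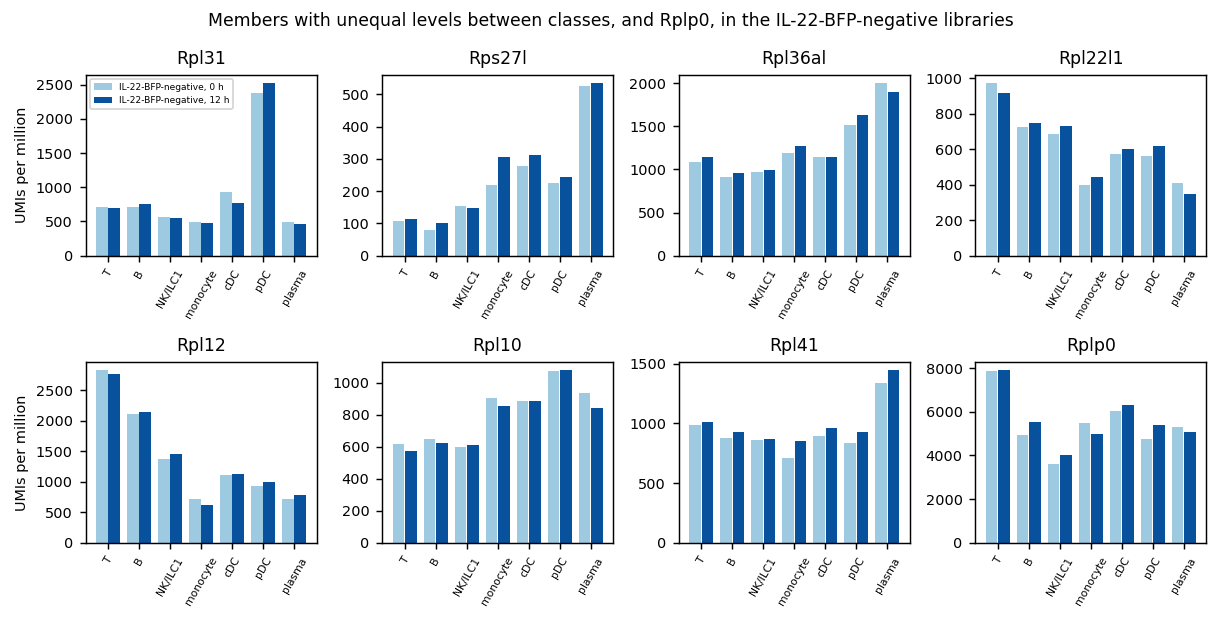
CPM (y axis) of 8 members in 7 cell classes of the IL-22-BFP-negative libraries, with 1 bar for 0 h and 1 for 12 h. Rpl31 is highest in pDC-like cells (2379.9 and 2524 CPM), Rps27l and Rpl36al are highest in plasma-cell-like cells, and Rpl12 is highest in T-cell-like cells.

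Between 0 h and 12 h the share in the IL-22-BFP-negative libraries moved little in most classes. It went from 35.1% to 35.5% in T-cell-like cells (ratio 1.01, interval 1.01 to 1.01), from 30.2% to 32.3% in B-cell-like cells (1.07, 1.07 to 1.07) and from 21.9% to 24.2% in NK-or-ILC1-like cells (1.10, 1.10 to 1.11). pDC-like cells were at 1.08 (1.07 to 1.09), cDC-like cells at 1.00 (0.996 to 1.01) and plasma-cell-like cells at 1.00 (0.998 to 1.01). Monocyte-like cells went the other way, from 19.8% of UMIs in 139 cells to 18.1% in 530 cells (0.913, 0.907 to 0.918), beside medians of 4462 and 5091 UMIs and mitochondrial shares of 1.305% and 1.67%. In cells of 1500 to 4000 UMIs the ratio was 0.876, and the part of RNA quality in it was not tested.

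Inside the T-cell-like class the clusters did not move together. Clusters 1, 6 and 13 were at 1.10, 1.10 and 1.08 at 12 h over 0 h, while cluster 4 was at 0.983 (0.980 to 0.985) and cluster 8 at 1.01. Clusters 4 and 8 made up 38.7% of the T-cell-like cells at 0 h and 33.7% at 12 h, and the cluster shares of 0 h at the make-up of 12 h gave an expected 34.1% against the observed 35.5%. The gap between clusters with a high and a low share was thus narrower at 12 h (43.5% against 31.6% for clusters 4 and 1) than at 0 h (44.3% against 28.8%). NK-or-ILC1-like clusters 3 and 7 were at 1.12 and 1.08.

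Behind these totals, few single members passed 1.3-fold, and the same 3 short ones led in class after class. In T-cell-like cells 3 of 83 members were higher at 12 h (background 3.11%) and 0 lower (8.92%): Rpl38, a 60S protein known for its role in translating Hox messages, at 3123 and 4134 CPM (1.32-fold), Rps29, a zinc-binding 40S protein, at 2704 and 3572 CPM (1.32-fold), and Rps28, also 40S, at 2382 and 3097 CPM, just at the mark. The median member stood at a log2 ratio of -0.00 and the median gene at -0.04, with 39 members above 1 and 44 below. The lowest were Rpl10 (616 to 577 CPM, 0.937) and Rplp1 (0.939).

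In B-cell-like cells 5 members were higher (background 3.27%) and 0 lower (12%), or 2 and 0 as shares of member UMIs: Rps29 (2449 to 3620.4 CPM, 1.48-fold), Rps28 (2040.4 to 2983 CPM, 1.46-fold), Rpl38 (1.34-fold), Rps27rt (1.34-fold) and Rpl7l1 (1.31-fold), the last 2 at low counts. Here 78 members were above 1 and 5 below, with medians of 0.08 in members and -0.06 in all genes. In NK-or-ILC1-like cells 3 were higher (3.91%) and 0 lower (11.6%), or 1 and 0 as shares of member UMIs, with 80 above 1 and 3 below, and again these were Rps29 (1713 to 2459 CPM, 1.44-fold), Rpl38 (2432 to 3484.5 CPM, 1.43-fold) and Rps28 (1253 to 1770.4 CPM, 1.41-fold). In pDC-like cells the 3 past the mark were the same as well (4.55% higher and 9.45% lower in all genes), at 1.46, 1.31 and 1.40 for Rps29, Rpl38 and Rps28, and in cDC-like cells they were joined by Rpl7l1 (4 higher, 12.3%; 0 lower, 14.2%). Plasma-cell-like cells also had 3 higher (16.6%) and 0 lower (11.4%), once more Rpl38, Rps29 and Rps28.

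Monocyte-like cells of the IL-22-BFP-negative fraction had 2 members higher (background 20.4%) and 2 lower (16%) of 82, with 18 above 1 and 64 below and medians of -0.11 in members and 0.03 in all genes. As shares of member UMIs in place of all UMIs, 6 were higher and 0 lower. Rps29 was at 1902 and 2661 CPM (1.40-fold) and Rps27l at 219 and 306 CPM (1.39-fold), and Rps28 and Rpl38 were just under the mark at 1.28-fold each. Rpl17, a 60S protein at the peptide exit tunnel, was among the lower ones, at 830.4 and 629 CPM (0.758). Rps29 passed the mark in each of these 7 classes, and Rps28 and Rpl38 in the 6 other than monocyte-like cells. All 7 come from the same pair of libraries, so the classes are not independent repeats.

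Among the related lists in monocyte-like cells, 7 of 18 TOP translation factors were lower at 12 h and 1 higher, with 17 below 1 and a median log2 ratio of -0.29. Pabpc1, the poly(A)-binding protein, went from 488 to 287 CPM (0.589) and Eif3f from 1417 to 865 CPM (0.610), while Eef1g went from 122.8 to 202.6 CPM (1.65-fold). Of 5 snoRNA host genes, 2 were lower and 0 higher (Zfas1, 72.1 to 32.5 CPM, and Gas5, 348.9 to 198.5 CPM). Mitochondrial ribosomal proteins were higher in 14 of 64 and lower in 5. Against backgrounds of 20.4% higher and 16% lower, the TOP translation factors were lower more often and the mitochondrial ribosomal proteins were higher about as often. In T-cell-like cells 0 of 18 TOP translation factors passed 1.3-fold in either direction.

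The IL-22-BFP-positive cells of T-cell-like, B-cell-like, monocyte-like and macrophage-like classes held a larger share of ribosomal protein UMIs than the negative ones at 12 h, and those of other classes did not. In T-cell-like cells the share was 35.1% and 35.5% in the negative libraries of 0 h and 12 h, and 35.2% (36 cells) and 42.2% (38 cells) in the positive ones, giving ratios of 1.00 (0.991 to 1.01) at 0 h and 1.19 (1.18 to 1.20) at 12 h. Clusters 4 and 8 held 18 of the 38 positive T-cell-like cells of 12 h (47.4%, against 33.7% of the negative ones), and at that make-up the negative cluster shares give 37.3%, which leaves a ratio of 1.13. At 0 h they held 11 of 36 (30.6% against 38.7%), the expected share was 32.4% and the ratio 1.09. B-cell-like cells were at 35.1% (30 cells) and 37.8% (23 cells), 1.16 and 1.17 times the negative values. At most 38 positive cells carry each of these values, and the T-cell-like ratio of 12 h was 1.17 without the cell with the most member UMIs.

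In monocyte-like cells, by far the most numerous class of the positive libraries, the share was 20.1% at 0 h (127 cells) and 20.4% at 12 h (990 cells), with ratios to the negative cells of 1.02 (1.01 to 1.02) and 1.13 (1.12 to 1.13). Macrophage-like cells of 12 h were at 18.9% and 17.99% (1.05, 1.04 to 1.06), and cDC-like cells at 24.8% and 24.97% (0.991, 0.982 to 1.00). The cluster led by Arg1 and Pf4 was lower in the positive library of 12 h, at 14.2% (34 cells) against 16.9% (26 cells), as were neutrophil-like cells and the clusters of low UMI count (2.49% in 30 cells against 10.3%). Within the positive fraction, macrophage-like cells went from 15.9% at 0 h to 18.9% at 12 h (1.19), and T-cell-like cells were at 1.20 (1.18 to 1.22). Without the members of under 300 coding bases the monocyte-like ratio of 0 h fell to 0.933 and the macrophage-like ratio of 12 h to 0.998, so both directions rest on short members.

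Single members differed far more than the total between the sorted fractions. Rps29 in T-cell-like cells was at 2704 and 3572 CPM in the negative libraries and at 6921 and 6923 CPM in the positive ones. In B-cell-like cells it was at 2449 and 3620.4 against 7458 and 8151 CPM, and in monocyte-like cells at 1902 and 2661 against 5761 and 5782 CPM. In each class both positive libraries lay above both negative ones. Rps28 followed the same order, with 1651 and 2107 against 4016 and 3775 CPM in monocyte-like cells, and so did Rpl38, with 1559 and 1989 against 3489 and 3204 CPM. Rps27, a zinc-binding 40S protein, was at 4997 and 5708 against 8264 and 9350.3 CPM in T-cell-like cells and at 5331 and 6230.1 against 11023 and 10868 CPM in B-cell-like cells, with the limit that its 3′ end is shared with Rps27rt.

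Rpl3, whose protein reaches towards the peptidyl transferase centre, went the other way in 1 library. In T-cell-like cells it was at 3099.7 and 2994 CPM in the negative libraries, 2881 CPM in the positive library of 0 h and 914 CPM in the positive library of 12 h. B-cell-like cells gave 2365, 2335, 2335 and 906 CPM and monocyte-like cells 1508, 1447, 1256 and 509 CPM in the same order. Macrophage-like cells had 1644 CPM in the negative library of 12 h, 1463 CPM in the positive one of 0 h and 522 CPM in the positive one of 12 h, and cDC-like cells had 2121 CPM against 661 CPM at 12 h. Rpl3 was thus low in the positive library of 12 h in every class with at least 20 cells for which values are given here, and near the negative level at 0 h. Rpl4, the member with the longest coding sequence (1257 bases), was lowest in that library as well, at 826, 813, 636 and 336 CPM in T-cell-like cells, 707, 756, 529 and 439 CPM in B-cell-like cells and 499.5, 446, 499.4 and 284 CPM in monocyte-like cells. The positive B-cell-like values of Rpl4 rest on 34 UMIs at 0 h and 16 at 12 h, and their ratio had an interval of 0.428 to 1.54.

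**Figure D4:**
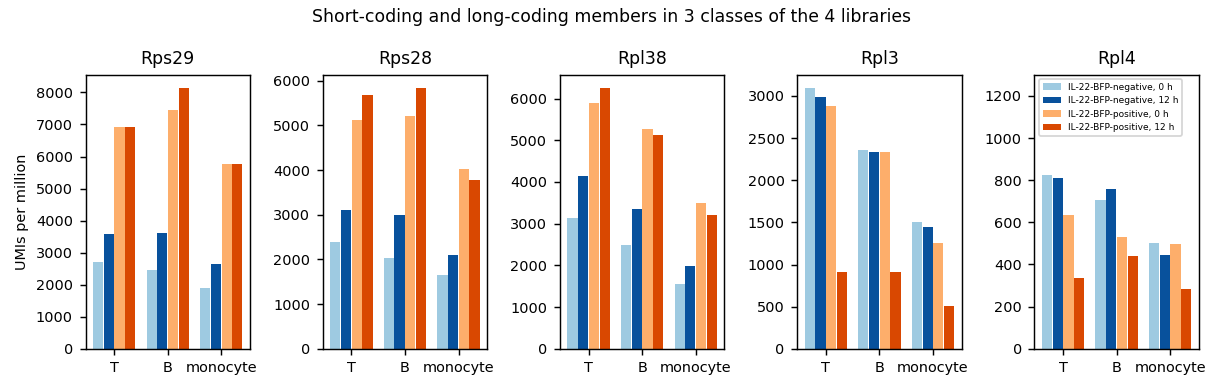
CPM (y axis, from 0) of Rps29, Rps28, Rpl38, Rpl3 and Rpl4 in T-cell-like, B-cell-like and monocyte-like cells, with 1 bar per library. Rps29, Rps28 and Rpl38 are higher in both IL-22-BFP-positive libraries, and Rpl3 is low in the positive library of 12 h alone (914, 906 and 509 CPM).

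As counts, 13 of 83 members were higher in positive than in negative T-cell-like cells at 12 h (background 19.3%) and 3 lower (41.9%), with 77 above 1 and 6 below and medians of 0.22 in members and -0.22 in all genes. With a median-ratio scaling the counts were 36 higher and 3 lower, per UMIs of other genes 41 and 2, and as shares of member UMIs 4 and 4. Rps29 (1.94-fold), Rps28 (1.84-fold), Rps27 (1.64-fold) and Rps21 (1.52-fold) led, and Rpl3 (0.305, 0.244 to 0.377) and Rpl4 (0.414) were the lowest. In B-cell-like cells 13 were higher (28.3%) and 3 lower (33.3%), or 30 and 3 per UMIs of other genes and 7 and 4 as shares of member UMIs, with Rps29 at 2.25 and Rpl3 at 0.388. At 0 h, 7 of 83 members were higher in T-cell-like cells (23.2%) and 3 lower (32.5%). By CPM the counts of members higher thus lay under the background of their comparison, while the scaling moved those of 12 h by over 1.5 times. The positive sums here came from 38 (T-cell-like, 12 h), 23 (B-cell-like, 12 h) and 36 cells (T-cell-like, 0 h). In such small sums a gene of low count can pass the mark by counting error alone, and most members are abundant. These backgrounds therefore cannot show that members differed less often than other genes. The same limit holds in differing degree for the other backgrounds given here, since a gene enters each of them from 100 UMIs over both sums.

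The monocyte-like sums of 12 h came from 990 positive and 530 negative cells. There 15 members were higher (background 17.1%) and 3 lower (19.2%), with 66 above 1 and 17 below and medians of 0.17 and 0.01. As shares of member UMIs the counts were 5 and 3. Rps29 was 2.17-fold higher (2.12 to 2.23), Rps28 1.79-fold, Rps27 1.64-fold, Rpl38 1.61-fold and Rpl37a, a zinc-binding 60S protein, 1.60-fold, and Rpl3 was the lowest (0.352, 0.333 to 0.371) before Rpl4 (0.637). At 0 h, 9 of 80 were higher (17.8%) and 6 lower (19.8%), or 11 and 3 with a median-ratio scaling. There the same 5 led, Rps29 at 3.03, Rps28 at 2.43, Rpl38 at 2.24, Rps27 at 1.98 and Rpl37a at 1.66, and the lowest were Rplp0 (0.709), Rpl29 (0.710) and Rpsa (0.725). The comparisons at the 2 times use different libraries throughout.

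In macrophage-like cells at 12 h, 12 of 80 members were higher (background 21.8%) and 1 lower (20.2%), or 9 and 4 as shares of member UMIs, with Rps29 at 2.09 and Rpl3 at 0.317. In cDC-like cells 8 of 82 were higher (20.3%) and 6 lower (36.4%), or 18 and 3 with a median-ratio scaling, with Rps29 at 2.01 and Rpl3 at 0.312. Within the positive fraction, monocyte-like cells of 12 h over 0 h had 3 members higher (21.8%) and 3 lower (25.3%). The lowest were Rpl3 (1256 to 509 CPM, 0.405) and Rpl4 (499.4 to 284 CPM, 0.568), and Rps27l was higher (250.0 to 376 CPM, 1.51-fold). In macrophage-like cells of the positive fraction Rpl3 was at 0.357 and Rplp0 at 1.48 (2402 to 3551 CPM).

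Most members that led or trailed these comparisons lie at the ends of the range of coding length, which the naming rule did not use. The median member has 453 coding bases. Rps29 has 168, Rps28 207, Rpl38 210, Rps27 252 and Rpl37a 276, whereas Rpl3 has 1209, Rpl4 1257, Rplp0 951 and Rpsa 885. Rpl29, among the lowest at 0 h, has 480.0. Across members, Spearman's rho between coding length and the ratio of positive over negative at 12 h was -0.75 in monocyte-like (83 members), -0.72 in cDC-like (82), -0.67 in macrophage-like (80), -0.49 in T-cell-like (83) and -0.42 in B-cell-like cells (83). At 0 h it was -0.71 in monocyte-like, -0.59 in T-cell-like and -0.53 in B-cell-like cells. These are descriptions across genes, which share libraries and are not independent.

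Between times in the negative fraction rho was -0.42 in T-cell-like, -0.43 in B-cell-like, -0.34 in monocyte-like and -0.22 in NK-or-ILC1-like cells. Between times in the positive fraction rho was 0.13, 0.24 and 0.08 in T-cell-like, B-cell-like and monocyte-like cells. Within 1 library it was 0.03 and -0.01 for cluster 4 over cluster 1 at 0 h and 12 h, 0.02 and 0.03 for monocyte-like over T-cell-like cells and -0.12 at both times for NK-or-ILC1-like over T-cell-like cells. It was positive for plasma-cell-like over B-cell-like cells (0.22 and 0.16) and for the clusters of low UMI count over T-cell-like cells (0.26 and 0.14). In monocyte-like cells at 12 h the median ratio of positive over negative was 1.39 in members of under 300 coding bases, 1.13 in those between and 0.916 in those of over 700 bases. For cluster 4 over cluster 1 at 0 h the same medians were 1.47, 1.46 and 1.501. Across genes that are not members, rho for positive over negative was 0.20 in monocyte-like cells at 12 h (5169 genes), -0.04 in T-cell-like cells at 12 h and -0.17 in T-cell-like cells at 0 h. For 12 h over 0 h in the negative fraction it was -0.26, -0.23, -0.20 and -0.18 in T-cell-like, B-cell-like, NK-or-ILC1-like and monocyte-like cells, close to the members' value in NK-or-ILC1-like cells. The relation was thus not particular to members there. Between the sorted fractions, non-members of under 300 coding bases also had the highest median ratio, except in monocyte-like cells at 0 h. For short, middle and long non-members the medians were 1.09, 0.967 and 1.01 in monocyte-like cells at 12 h. They were 1.07, 0.925 and 0.809 in T-cell-like cells at 12 h, and 0.984, 0.884 and 0.993 in monocyte-like cells at 0 h. What in the libraries goes with coding length was not tested.

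**Figure D5:**
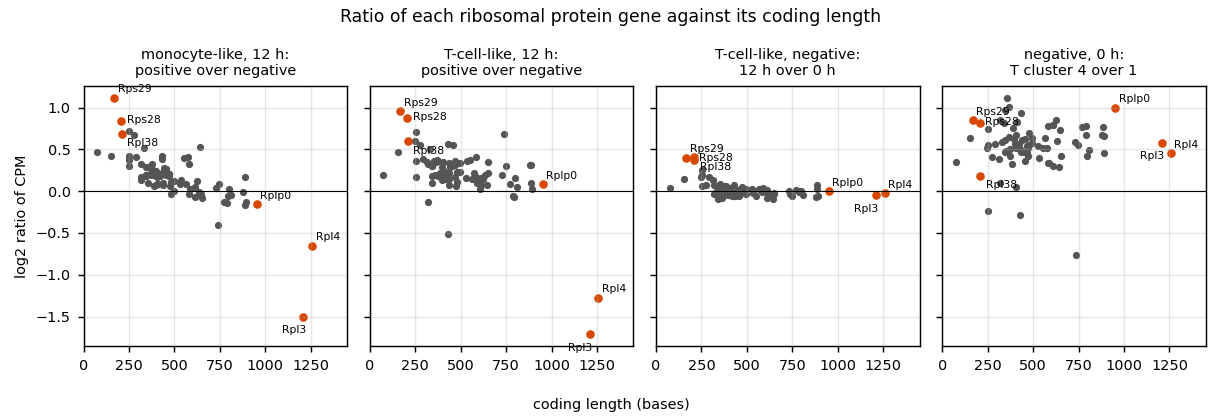
log2 ratio of CPM (y axis) against coding length in bases (x axis), with 1 point per measured member, in 3 comparisons between libraries and 1 within a library. Ratios fall with length between the sorted fractions (Rps29 at the top left, Rpl3 at the bottom right) and show no slope for cluster 4 over cluster 1.

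Of the TOP translation factors, none were higher in the positive fraction at 12 h in T-cell-like or monocyte-like cells, and they were lower about as often as all genes. In T-cell-like cells 7 of 18 were lower and 0 higher (background 41.9% and 19.3%), with Eef1g, an elongation factor subunit, at 402 and 84.0 CPM (0.209) and Eif3h, an initiation factor subunit, at 634 and 210.1 CPM (0.331). In monocyte-like cells 3 of 18 were lower and 0 higher (background 19.2% and 17.1%), again with Eif3h (467 to 165 CPM, 0.354) and Eef1g (203 to 108 CPM, 0.534) the lowest. Of 6 snoRNA host genes 5 were higher and 0 lower in those cells, and of 70 mitochondrial ribosomal proteins 1 was higher and 13 lower, the latter near the background. Between 0 h and 12 h in positive monocyte-like cells, 37 of 62 mitochondrial ribosomal proteins were higher and 1 lower (background 21.8% and 25.3%).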

How the data were processed

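The authors deposited raw UMI counts per gene and barcode for 4 libraries made with the 10x Single Cell 3' v2 kit. Cell Ranger 4.0.0 stands in the matrices' headers, but version 3.0.1, with the mm10 genome, in the submitters' processing notes; which one made the counts is not settled here. The members and all gene lists were chosen with earlier results of these data known.

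A barcode needed 200 or more genes and less than 10% of its UMIs from mitochondrial genes, and 254, 132, 11 and 28 barcodes failed this (negative 0 h and 12 h, positive 0 h and 12 h). Scrublet calls (expected 0.8% per 1000 cells) then removed 373, 607, 6 and 5. In the negative library of 12 h the automatic threshold marked 1 barcode, so that of the 0 h library was used. Log counts of 2000 variable genes without members, 30 principal components, 15 neighbours and Leiden resolution 1 gave the clusters. Clusters with a median under 1100 UMIs, a limit set after the clusters were seen, were left unnamed, and classes of under 20 cells in a library were not used. The interferon-led and cycling clusters hold several cell types.

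UMIs were summed per library and class. Shares have exact Clopper-Pearson intervals and ratios exact conditional binomial ones; UMIs of 1 cell are not independent, so both cover counting error only. A sum of 0 was set to a floor of 3 UMIs. Members named are the 5 highest and 5 lowest ratios per comparison among those with 100 UMIs over both sums, the 10 most abundant and the 9 paralogs; of other lists the 2 highest and 2 lowest. Some members that this rule names are not reported here, and a member named outside the rule is said to be so or belongs to the length relation, which was looked at after the values were seen. Coding lengths came from a GRCm38 annotation. Alternatives were other filters, denominators, scalings, resolutions and folds. Python 3.11.15 was used with numpy 2.4.6, scipy 1.17.1, pandas 2.3.3, scikit-learn 1.9.0, scanpy 1.11.5, leidenalg 0.10.2 and matplotlib 3.10.9. The ratio code was tested on simulated counts.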

Additional observations from a re-analysis of the deposited data

Results flagged for a closer look

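The share of ribosomal protein UMIs in monocyte-like cells went down from 0 h to 12 h in the IL-22-BFP-negative fraction (ratio 0.913) and slightly up in the positive fraction (1.01), with counting intervals on opposite sides of 1. The difference was not tested, since each group is 1 library. The positive ratio was 0.931 in cells of 1500 to 4000 UMIs and 0.978 as a mean of per-cell shares, so its direction depends on depth and on how cells are weighted.

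Rps27rt, the retrotransposed copy of Rps27, was lower in positive than in negative B-cell-like cells at 0 h (0.326, interval 0.00821 to 1.84) and higher at 12 h (1.71), also untested. The value of 0 h rests on 1 UMI in the positive cells, and the 3′ end of Rps27rt is shared with Rps27.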

How the results depend on the processing

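No paired analysis was possible because each group has 1 library. The shortest members were left out, and the T-cell-like make-up was fixed, only after the data were seen; the other alternatives were planned, and where no cause is named, the cause was not tested. Over a fold of 1.5, which by construction keeps fewer genes, the members higher at 12 h numbered 0 in T-cell-like, B-cell-like, NK-or-ILC1-like and monocyte-like cells (0 lower in the last), against 3, 5, 3 and 2 (2 lower), and those higher in positive cells at 12 h numbered 6, 8 and 5 in T-cell-like, B-cell-like and monocyte-like cells, against 13, 13 and 15. As shares of member UMIs the counts of 12 h over 0 h were 2 in B-cell-like, 1 in NK-or-ILC1-like and 6 in monocyte-like cells (0 lower), and those of positive over negative 4, 7 and 5 in T-cell-like, B-cell-like and monocyte-like cells. Over UMIs of other genes 41 (T-cell-like) and 30 (B-cell-like) members were higher in positive cells, and with median-ratio scaling 36 (T-cell-like). Without members of under 300 coding bases, the ratio of the share at 12 h over 0 h was 0.996 (reversed) in T-cell-like, 1.05 in B-cell-like, 1.09 in NK-or-ILC1-like and 0.895 in monocyte-like cells. Positive over negative became 1.15, 1.12, 1.07 and 0.998 (reversed) in T-cell-like, B-cell-like, monocyte-like and macrophage-like cells at 12 h and 0.933 (reversed) in monocyte-like cells at 0 h. In cells of 1500 to 4000 UMIs, 12 h over 0 h was 1.02, 1.08, 1.12 and 0.876 in T-cell-like, B-cell-like, NK-or-ILC1-like and monocyte-like cells, 0.994 (reversed, from 1.18) in the clusters of low UMI count and 0.931 (reversed) in positive monocyte-like cells, and positive over negative at 12 h 1.17 in T-cell-like and 1.14 in monocyte-like cells. As means of per-cell shares, 12 h over 0 h was 1.05, 1.06 and 1.12 in T-cell-like, B-cell-like and NK-or-ILC1-like cells, 0.901 (reversed) in the clusters of low UMI count and 0.978 (reversed) in positive monocyte-like cells, and positive over negative at 12 h 1.16, 1.20, 1.12 and 0.999 (reversed) in T-cell-like, B-cell-like, monocyte-like and macrophage-like cells. The T-cell-like ratio of positive over negative at 12 h was 1.17 without the cell with most member UMIs and 1.13 at equal cluster make-up. Without mitochondrial genes and Malat1 the B-cell-like ratio of 12 h was 1.07, and with clusters made from members too the T-cell-like one was 1.01 and the monocyte-like ratio of positive over negative 1.13. The T-cell-like share of 0 h (35.1%) was 34.9% over all barcodes, 35.3% at 500 genes or under 5% mitochondrial UMIs, 32.5% per cell, 36.2% without mitochondrial genes and Malat1, 35.2% with clusters made from members, 34.9% at resolution 2, 35.9% with pseudogenes and 34.9% with canonical members. The monocyte-like one (19.8%) was 19.5% over all barcodes, 19.4% per cell, 20.2% without mitochondrial genes and Malat1, 19.3% and 19.9% at resolutions 0.5 and 2, 20.4% with pseudogenes and 19.6% with canonical members. Without members that have pseudogene symbols the 40S share was 49.5% and 48.3%. Classes of under 50 cells limit the depth in the positive fraction.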
